A study of Homo sapiens with 4 samples.

Results

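The 8 genes described here make or degrade polyamines or control the first enzyme of their synthesis. They are ODC1, AMD1, SRM, SMS, SAT1, OAZ1, OAZ2 and AZIN1. Each was taken by an exact match of its symbol in the gene column, and all 8 were present among the 19192 genes counted in each of 4 libraries. SW480, an established line grown from a human colorectal adenocarcinoma, was the parent of both lines used. The knockout-labelled line is given as overexpressing LIN28B, which blocks maturation of let-7 microRNAs, and as a homozygous knockout of IMP1, a protein that binds mRNAs and whose gene is IGF2BP1. The OE-labelled line (for overexpression) is given as overexpressing LIN28B alone. Each line gave 1 RNA-seq library and 1 library of ribosome footprints, the short mRNA pieces that translating ribosomes shield from nuclease, and 3 culture plates were pooled for each library. Nothing in the labels says how many clones either line represents, or what drives the LIN28B transgene.

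Total counts were 6813372 in knockout-labelled RNA, 5429224 in OE-labelled RNA, 3260262 in knockout-labelled footprints and 2732760 in OE-labelled footprints. IGF2BP1, the labelled knockout target, was higher in the knockout-labelled line, not lower. It had 1974 RNA counts there against 840 in the OE-labelled line, 1.73-fold higher after scaling. Its footprint counts were 821 in the knockout-labelled line and 332 in the OE-labelled line, 2.04-fold higher. LIN28B had 303 RNA counts in the knockout-labelled line and 1205 in the OE-labelled line. The lines therefore keep their labels here only as names. The labelled loss of IMP1, the difference in LIN28B and any other difference between the lines cannot be told apart. All 7 colorectal epithelial markers looked at (EPCAM, KRT8, KRT18, KRT19, CDH1, VIL1 and CDX2) had counts in every library, and their summed RNA level was 4955 CPM in the knockout-labelled line and 10441 CPM in the OE-labelled line. KRT8 and KRT18 made up most of that sum, while CDH1 was 1.85-fold higher in RNA and 2.15-fold higher in footprints in the knockout-labelled line. PTPRC, COL1A2 and ALB, markers of other cell types, had no count in any library. COL1A1 had 55 RNA counts in the knockout-labelled line and 2 in the OE-labelled line. The 7 markers of other cell types summed to 33.5 CPM in knockout-labelled RNA and 21.7 CPM in OE-labelled RNA. DES made up most of both sums, with 156 of 238 counts in knockout-labelled RNA and 101 of 113 in OE-labelled RNA. Footprints of DES numbered 116 in the knockout-labelled line and 75 in the OE-labelled line. The part of these marker differences in the results below was not tested.

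Polyamines are small positively charged molecules that bind nucleic acids and that dividing cells need for translation and growth. Ornithine decarboxylase, encoded by ODC1, makes putrescine. S-adenosylmethionine decarboxylase, encoded by AMD1, supplies the aminopropyl donor with which spermidine synthase (SRM) and then spermine synthase (SMS) extend it. Spermidine/spermine N1-acetyltransferase, encoded by SAT1, starts their export and breakdown. Antizymes, encoded by OAZ1 and OAZ2, bind ornithine decarboxylase and deliver it to the proteasome without ubiquitin. Antizyme inhibitor, encoded by AZIN1, resembles ornithine decarboxylase but lacks its activity, and it frees the enzyme by binding antizyme. Several of these proteins are made under translational feedback: polyamines promote the ribosomal frameshift that completes antizyme, and short reading frames ahead of the AMD1 and AZIN1 coding sequences restrain their translation when polyamines are abundant.

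The frameshift windows of both antizyme mRNAs and the upstream reading frame of AMD1 are printed because they are the control elements for which these genes are known. The capitals in the antizyme windows mark the last sense codon of the first reading frame (TCC) and its stop codon (TGA). The first T of that stop codon is the single base that the annotated coding sequence leaves out.
OAZ1, chr19:2271413-2271503, plus strand: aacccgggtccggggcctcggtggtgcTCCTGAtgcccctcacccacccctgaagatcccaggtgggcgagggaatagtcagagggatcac
OAZ2, chr15:64691455-64691545, minus strand: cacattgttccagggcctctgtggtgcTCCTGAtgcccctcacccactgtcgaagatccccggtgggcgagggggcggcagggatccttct
AMD1 upstream frame, chr6:110874796-110874816, plus strand: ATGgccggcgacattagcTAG
In the AMD1 line the capitals mark the start and stop codons of a frame of 6 codons, which ends 289 bases ahead of the main start codon. Coordinates and sequences are from GENCODE release 29 (GRCh38), and the antizyme windows were read from retained-intron transcripts of the same genes, since the coding transcripts omit the skipped base. The OAZ1 and OAZ2 windows are 91 bases long and identical at 64 of them, with a longest unbroken match of 27 bases across the shift site. The first frame has 68 codons in OAZ1 and 32 in OAZ2, and the shifted frame 160 and 157. Of 19113 listed transcripts with an annotated coding sequence, 6 leave out a single base. The deposited counts are totals per gene, so footprints before and after the shift, or in an upstream frame, cannot be separated.

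The upstream frames were also counted for the other genes by reading each listed leader for an ATG followed by a stop codon in frame before the main start. ODC1 held 2, of 8 and 10 codons, in a leader of 511 bases, and SAT1 held 1, of 4 codons. OAZ2 held 2 that end at the same stop codon, and AZIN1 held 5 in a leader of 766 bases. OAZ1, SRM and SMS held none. Of all listed transcripts with a leader of at least 3 bases, 43.2% held at least 1, so carrying such a frame is common. Frames that start at codons other than ATG, such as the one known in AZIN1, are not counted.

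The 8 genes differed among themselves in direction between the lines, and their medians lay close to those of all genes. Their median log2 ratio, knockout-labelled over OE-labelled, was 0.09 in RNA, 0.05 in footprints and 0.12 in translational efficiency, the footprint ratio over the RNA ratio. The medians of all measured genes were 0.01, 0.02 and -0.00480. All 8 members passed the filter of a mean count of 50 in both assays. OAZ2 passed it in footprints through the knockout-labelled library, where it had 71 counts, against 35 in the OE-labelled library, so its footprint and efficiency calls support nothing further. Each line has 1 library per assay, so no difference has a replicate check, no p-value is given and every 95% interval covers counting error only. In bulk cultures such as these, fewer cells of a type and less RNA per cell cannot be told apart.

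No member reached a 1.5-fold difference in RNA in either direction, where 10.5% of 9855 genes passed 1.5-fold upwards and 10.5% passed it downwards. Intervals lay above 0 for 3 members (ODC1, AMD1 and SRM), against 28.5% of all genes, and below 0 for 2 (SAT1 and AZIN1), against 27.3%. In footprints, 1 member (OAZ2) was at least 1.5-fold higher, against 15.0% of 7323 genes, and 1 (ODC1) at least 1.5-fold lower, against 14.0%. Footprint intervals lay above 0 for AMD1, OAZ2 and AZIN1, against 29.9% of genes, and below 0 for ODC1, SMS and SAT1, against 27.4%. In efficiency, 1 member (OAZ2) was at least 1.5-fold higher, against 13.4% of 7260 genes, and 1 (ODC1) at least 1.5-fold lower, against 12.9%. Efficiency intervals lay above 0 for SAT1, OAZ1 and AZIN1, against 22.8% of genes, and below 0 for ODC1, SRM and SMS, against 22.9%. With 8 members, counts of 1 to 3 are near what these shares of all genes give. Scaling by total counts moved the median RNA ratio of all genes to 0.13, and the split of genes past 1.5-fold in RNA to 1493 higher and 746 lower, against 1036 and 1038 with TMM. For efficiency that split became 760 higher and 1200 lower, against 972 and 939.

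ODC1 had the widest efficiency difference of the 8 genes, and its assays went in opposite directions. The listed transcript, ENST00000234111, spans chromosome 2 from 10439968 to 10448504. ODC1 had 3840 RNA counts (541 CPM after TMM scaling) in the knockout-labelled line and 2215 (425 CPM) in the OE-labelled line. Its RNA was thus 1.27-fold higher, with a log2 ratio of 0.35 (0.27 to 0.43). Footprints stood at 550 counts (167 CPM) in the knockout-labelled line and 741 (273 CPM) in the OE-labelled line. They were 1.63-fold lower, with a log2 ratio of -0.71 (-0.87 to -0.55). The mRNA of the rate-controlling enzyme was therefore more abundant, and carried fewer footprints, in the knockout-labelled line. Efficiency was 2.08-fold lower, with a log2 ratio of -1.05 (-1.23 to -0.88), which ranked 217 from the lowest of 7260 genes; 3.6% of genes were at least 2-fold lower. An RNA interval above 0 together with a footprint interval below 0 was found for ODC1 and for 3.61% of all genes. Under 5 other scalings and added counts, the efficiency log2 ratio lay between -1.15 and -1.01. The 40 nearest measured genes on chromosome 2 had a median RNA log2 ratio of -0.29, so ODC1 stood 0.64 above its neighbours in RNA. No efficiency of the neighbours was computed. Instead their median RNA log2 ratio was taken from their median footprint log2 ratio, each over the 40 genes nearest in that assay. Less that value, the ODC1 efficiency log2 ratio was -1.27.

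**Figure D1:**
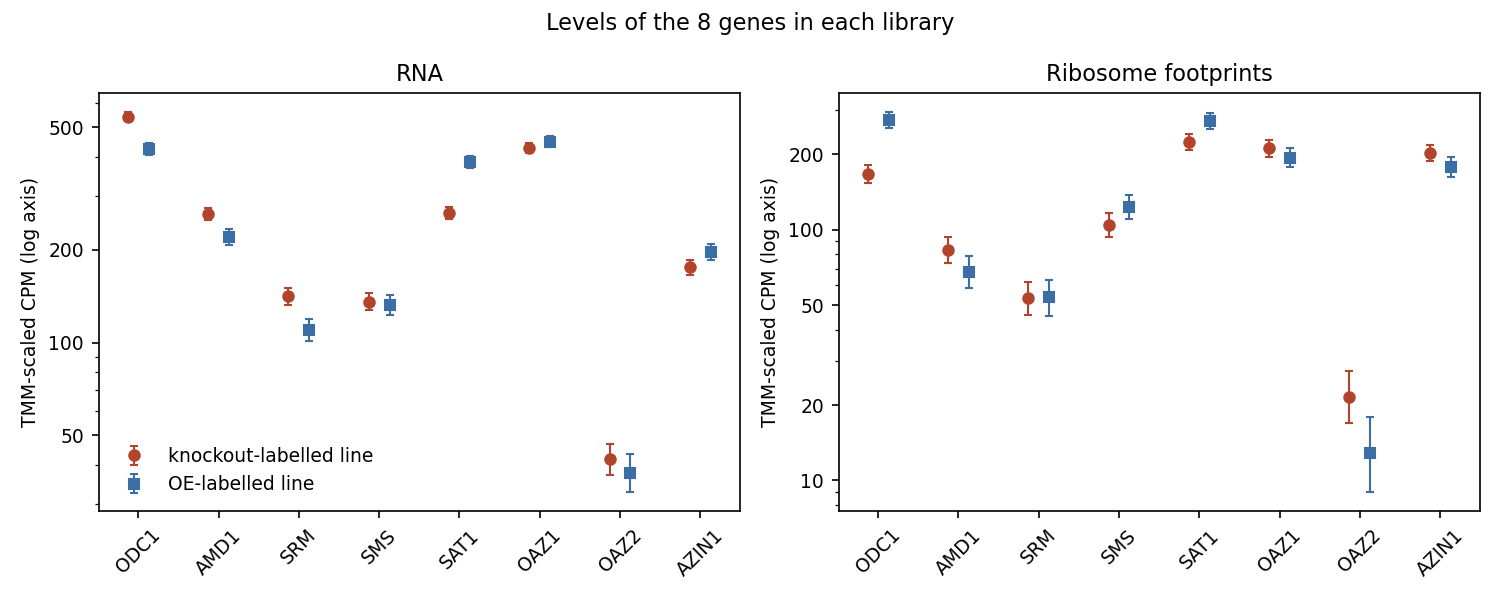
Level of each gene in each library, as TMM-scaled CPM on a log axis, for RNA on the left and ribosome footprints on the right. Circles are the knockout-labelled line, squares the OE-labelled line, and bars exact Poisson 95% intervals of the counts; for ODC1 the circle is above the square in RNA (541 CPM, against 425 CPM for OE-labelled) and below it in footprints (167 CPM, against 273 CPM).

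AMD1, which supplies the aminopropyl donor, was higher in both assays by small amounts. It had 1852 RNA counts (261 CPM) in the knockout-labelled line and 1149 (220 CPM) in the OE-labelled line, a log2 ratio of 0.24 (0.14 to 0.35). Its footprints were 274 counts (83.4 CPM) in the knockout-labelled line and 184 (67.8 CPM) in the OE-labelled line, a log2 ratio of 0.30 (0.02 to 0.58). Footprints thus followed RNA, and the efficiency ratio of 0.05 had an interval across 0 (-0.24 to 0.34). The AMD1 transcript, ENST00000368885 on chromosome 6 from 110874770 to 110895713, has 4 annotated processed pseudogenes, so some of its reads may be shared with them. Less the median of its 40 nearest measured genes, the AMD1 RNA log2 ratio was 0.13.

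Of the aminopropyl transferase genes, SRM was higher in RNA and SMS was level, and both had lower efficiency. SRM, the spermidine synthase gene (ENST00000376957, chromosome 1, 11054589 to 11060024), had 1004 RNA counts (141 CPM) in the knockout-labelled line and 574 (110 CPM) in the OE-labelled line. That is a 1.28-fold higher RNA level, with a log2 ratio of 0.36 (0.21 to 0.51). Its footprints, 175 counts (53.3 CPM) in the knockout-labelled line and 146 (53.8 CPM) in the OE-labelled line, were at nearly equal levels. SRM also has 2 annotated processed pseudogenes. SMS, the spermine synthase gene (ENST00000404933, chromosome X, 21940573 to 21994835), had 964 RNA counts (136 CPM) in the knockout-labelled line and 689 (132 CPM) in the OE-labelled line. Its RNA levels were within counting error of each other, with a log2 ratio of 0.04 (-0.10 to 0.18). Footprints of SMS were 344 counts (105 CPM) in the knockout-labelled line and 334 (123 CPM) in the OE-labelled line, a log2 ratio of -0.23 (-0.46 to -0.01). The efficiency log2 ratios were -0.38 (-0.73 to -0.03) for SRM and -0.27 (-0.53 to -0.01) for SMS. Both intervals end close to 0, and with upper-quartile scaling both crossed it. Less the neighbours' medians, the efficiency value of SMS was -0.08. Added together, the 4 synthesis enzymes had 1079.5 RNA CPM in the knockout-labelled line and 888 in the OE-labelled line. Their footprints summed to 409 CPM in the knockout-labelled line and 518 in the OE-labelled line, and ODC1 alone stood at 167 and 273 CPM of those sums.

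SAT1, whose product acetylates spermidine and spermine, was the member with the lowest RNA ratio. The listed transcript, ENST00000379270, lies on chromosome X from 23783173 to 23786226. It had 1869 RNA counts (263 CPM) in the knockout-labelled line and 2006 (385 CPM) in the OE-labelled line, 1.46-fold lower with a log2 ratio of -0.55 (-0.64 to -0.46). Footprints were 734 counts (223 CPM) in the knockout-labelled line and 736 (271 CPM) in the OE-labelled line, a log2 ratio of -0.28 (-0.43 to -0.13). The footprint difference was smaller than the RNA difference, and the efficiency log2 ratio was 0.27 (0.09 to 0.44). With scaling by total counts the efficiency value was 0.17 and its interval crossed 0. SAT1 and SMS lie near each other on chromosome X, and their neighbours had a median footprint log2 ratio of -0.17, while the genes near SAT1 had an RNA median of 0.03. Less these medians, SAT1 stood at -0.11 in footprints and 0.47 in efficiency.

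OAZ1 was nearly level between the lines, and the footprint values of OAZ2 are given but not read as a difference. OAZ1 (ENST00000602676, chromosome 19, 2269520 to 2273490) had 3034 RNA counts (428 CPM) in the knockout-labelled line and 2339 (449 CPM) in the OE-labelled line. Its RNA log2 ratio was -0.07 (-0.15 to 0.01), and scaling by total counts turned it to 0.05. Footprints of OAZ1 were 693 counts (211 CPM) in the knockout-labelled line and 526 (194 CPM) in the OE-labelled line, a log2 ratio of 0.12 (-0.04 to 0.29). The efficiency log2 ratio of 0.19 had a lower bound just above 0 (0.01 to 0.37), and with total counts the interval crossed 0. The 40 nearest measured genes on chromosome 19 had a median footprint log2 ratio of 0.27, above the OAZ1 value. Less the neighbours' medians, OAZ1 stood at -0.15 in footprints and -0.04 in efficiency, so both turned in direction. OAZ2, the other broadly expressed antizyme gene (ENST00000326005, chromosome 15, 64687573 to 64703281), was counted far less. It had 297 RNA counts (41.9 CPM) in the knockout-labelled line and 197 (37.8 CPM) in the OE-labelled line, a log2 ratio of 0.15 (-0.12 to 0.41). Its footprints numbered 71 (21.6 CPM) in the knockout-labelled line and 35 (12.9 CPM) in the OE-labelled line, 1.66-fold higher with a log2 ratio of 0.73 (0.14 to 1.37). The efficiency log2 ratio of 0.59 reached 1.5-fold by a narrow margin and its interval crossed 0 (-0.05 to 1.22). OAZ2 passed the footprint filter through the knockout-labelled library, so its footprint and efficiency ratios support nothing further.

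AZIN1, the antizyme inhibitor gene, had the reverse arrangement to ODC1 at a smaller size. The listed transcript, ENST00000347770, lies on chromosome 8 from 102827823 to 102864193. It had 1244 RNA counts (175 CPM) in the knockout-labelled line and 1027 (197 CPM) in the OE-labelled line, a log2 ratio of -0.17 (-0.29 to -0.05). Footprints were 666 counts (203 CPM) in the knockout-labelled line and 482 (178 CPM) in the OE-labelled line, a log2 ratio of 0.19 (0.02 to 0.36). An RNA interval below 0 with a footprint interval above 0 was found for AZIN1 and for 4.06% of all genes. Efficiency was 1.28-fold higher, with a log2 ratio of 0.36 (0.15 to 0.57), and its interval stayed above 0 in each of the 4 other scalings. The RNA interval crossed 0 with total counts. An antisense gene, AZIN1-AS1, is annotated at this locus, and whether counting used strand is not given in the sources used here.

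**Figure D2:**
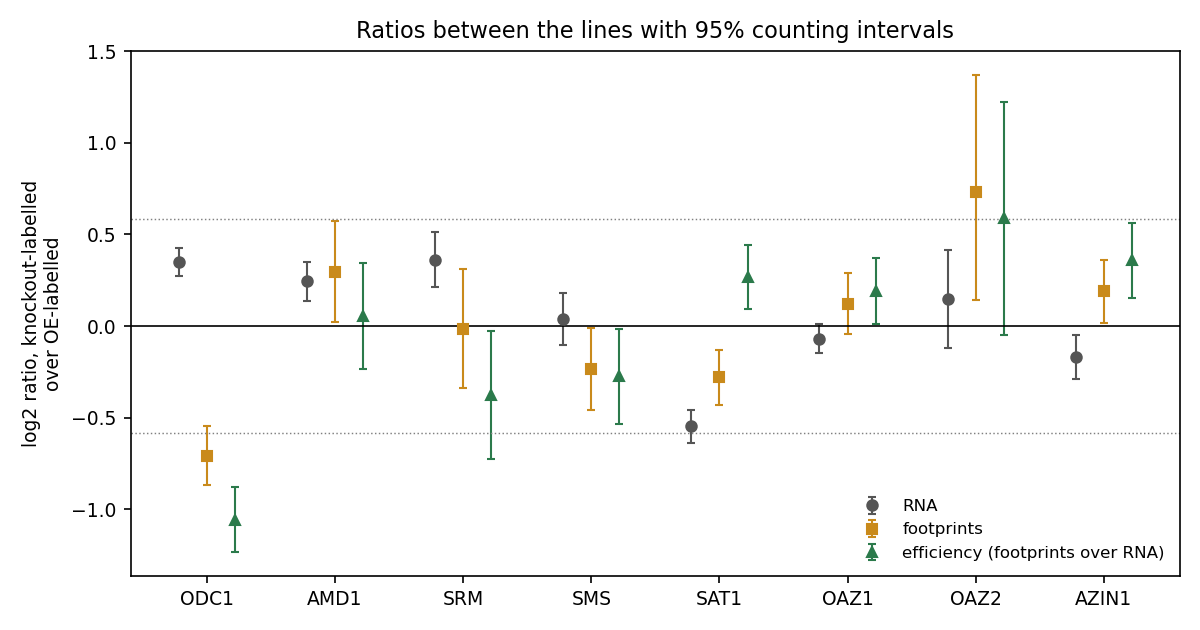
Log2 ratio of the knockout-labelled over the OE-labelled line for each gene, with circles for RNA, squares for footprints and triangles for efficiency. Bars are 95% counting intervals and dotted lines mark 1.5-fold; ODC1 lies at 0.35 in RNA, -0.71 in footprints and -1.05 in efficiency.

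**Figure D3:**
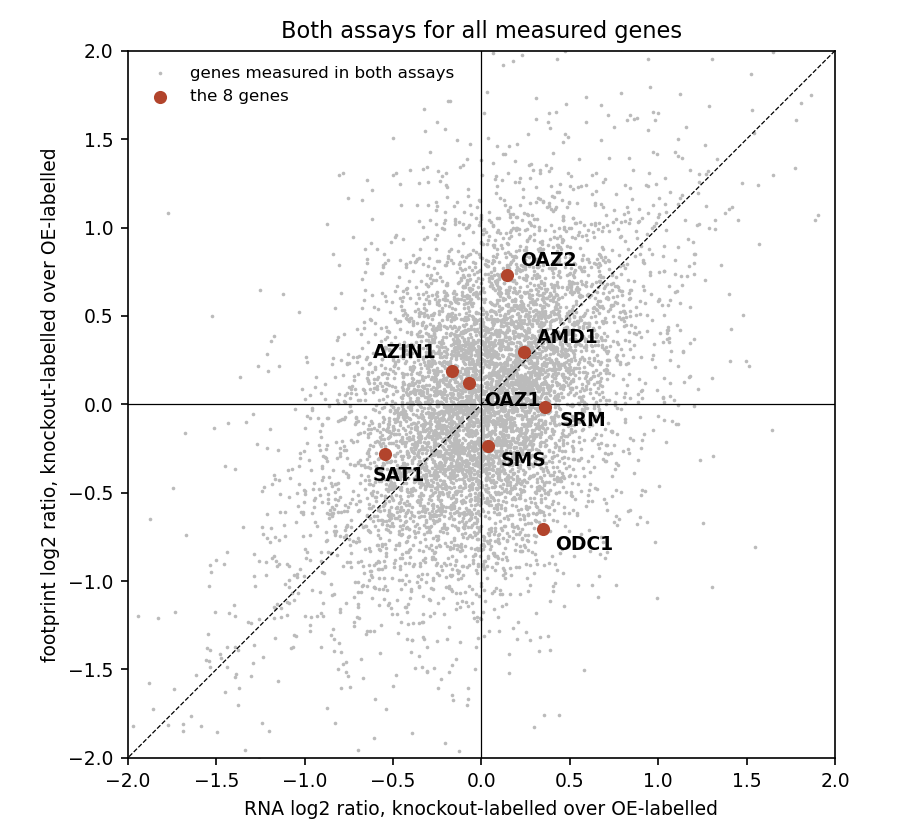
RNA log2 ratio (x axis) and footprint log2 ratio (y axis), knockout-labelled over OE-labelled, for the 7260 genes measured in both assays in grey and the 8 genes in red. The dashed line marks equal ratios and 57 genes lie beyond the axes. ODC1 (0.35 and -0.71), SMS (0.04 and -0.23) and SRM (0.36 and -0.02) are in the lower right quadrant. AZIN1 (-0.17 and 0.19) and OAZ1 are in the upper left, AMD1 and OAZ2 in the upper right and SAT1 in the lower left.

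Ratios between members inside 1 library do not depend on how libraries are scaled. They reuse the counts given above, so they add no separate support for the ODC1 contrast. They are given per coding length, as counts per kilobase of 1 gene over those of another. The RNA level of ODC1 was 0.626 of that of OAZ1 (0.597 to 0.657) in the knockout-labelled line and 0.468 (0.442 to 0.497) in the OE-labelled line. In footprints the same ratio was 0.393 (0.350 to 0.440) in the knockout-labelled line and 0.697 (0.622 to 0.781) in the OE-labelled line. ODC1 was therefore higher relative to OAZ1 in RNA and 1.78-fold lower relative to it in footprints. Relative to OAZ2, the ODC1 RNA log2 difference of 0.20 had an interval across 0 (-0.07 to 0.47). The footprint ratio to OAZ2 is not read, since OAZ2 passed the footprint filter through the knockout-labelled library. Set against AZIN1, ODC1 footprints were at 0.803 (0.716 to 0.900) in the knockout-labelled line and 1.49 (1.33 to 1.68) in the OE-labelled line. In RNA the ratio of ODC1 to AZIN1 was 1.43-fold higher in the knockout-labelled line, a log2 difference of 0.52 (0.38 to 0.66). The balance of inhibitor to antizyme, AZIN1 over OAZ1, was 0.489 in footprints (0.439 to 0.545) in the knockout-labelled line and 0.466 (0.411 to 0.529) in the OE-labelled line, a log2 difference of 0.07 whose interval crossed 0 (-0.17 to 0.30). AMD1 footprints per ODC1 footprint were 0.688 (0.593 to 0.796) in the knockout-labelled line and 0.343 (0.290 to 0.403) in the OE-labelled line, 2.01-fold higher. In RNA, AMD1 over ODC1 was 0.666 (0.629 to 0.704) in the knockout-labelled line and 0.716 (0.666 to 0.769) in the OE-labelled line, a log2 difference of -0.11 (-0.24 to 0.03).

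**Figure D4:**
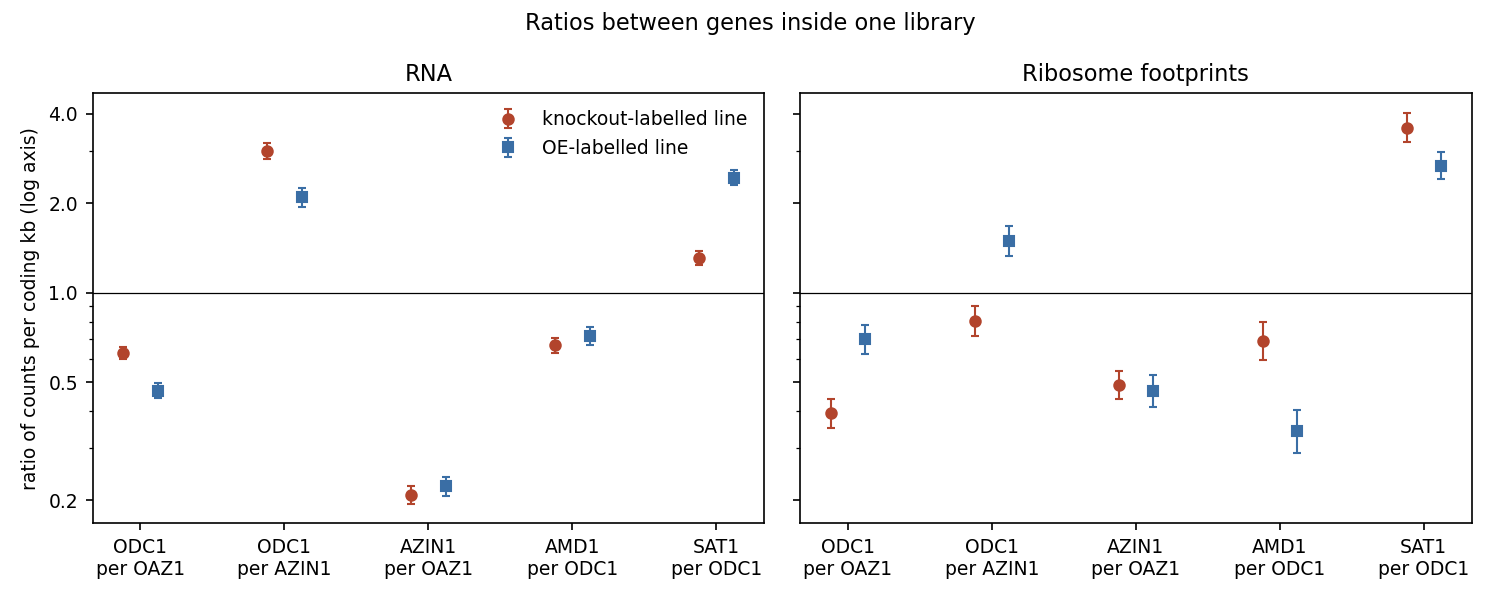
Ratio of counts per coding kilobase between pairs of genes within each library, on a log axis, for RNA on the left and footprints on the right. Circles are the knockout-labelled line, squares the OE-labelled line, and bars exact binomial 95% intervals; ODC1 per OAZ1 is 0.626 in the knockout-labelled and 0.468 in the OE-labelled line in RNA, and 0.393 and 0.697 in footprints.

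All 8 mRNAs were above the median gene in RNA level per coding length. In the knockout-labelled line, OAZ1 was highest at 625 CPM per kilobase, followed by SAT1 at 513, ODC1 at 391, AMD1 at 260, SRM at 156, AZIN1 at 130, SMS at 124 and OAZ2 at 73.8. In the OE-labelled line SAT1 came first at 750, ahead of OAZ1 at 656 and ODC1 at 307, and OAZ2 was again last at 66.6. The median gene stood at 29.1 in the knockout-labelled line and 28.7 in the OE-labelled line. SRM and SMS, at 122 and 120 CPM per kilobase in the OE-labelled line, were not separated by counting error. In footprints per coding length, SAT1 was highest in both lines (436 in the knockout-labelled and 529 in the OE-labelled line) and OAZ2 lowest (38.1 and 22.8). The OAZ2 values lie below the median gene, at 39.1 in knockout-labelled and 38.6 in OE-labelled footprints. ODC1 stood below AZIN1 in knockout-labelled footprints (121 and 151) and above it in OE-labelled footprints (198 and 132). Where full transcript length was used instead, ODC1 kept its place in each library, but the order of the others moved. Of the 8 genes, 4 kept their place in knockout-labelled RNA and 6 in knockout-labelled footprints. In the OE-labelled line 2 kept theirs in RNA and 4 in footprints. SAT1 and OAZ1 changed places in OE-labelled RNA, and AMD1, whose trailer is 2100 bases long, stood below SRM.

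All 8 mRNAs carried fewer footprints per RNA count than the median gene in both lines, though the interval of AZIN1 in the knockout-labelled line reached it. The values here are footprint counts over RNA counts in 1 line, divided by the same ratio for the median of 7260 genes. ODC1 stood at 0.263 of the median gene in the knockout-labelled line (percentile 5.15) and 0.554 in the OE-labelled line (percentile 21.0). AMD1 was low in both, at 0.272 and 0.266 (percentiles 5.58 and 4.52 in the knockout-labelled and OE-labelled lines). SRM stood at 0.321 in the knockout-labelled line and 0.422 in the OE-labelled line. OAZ1 stood at 0.420 and OAZ2 at 0.441 in the knockout-labelled line, against 0.373 and 0.298 in the OE-labelled line. SMS and SAT1 lay closer to the median gene, at 0.656 and 0.721 in the knockout-labelled line and 0.803 and 0.608 in the OE-labelled line. AZIN1 was the highest in the knockout-labelled line, at 0.983, and stood at 0.778 in the OE-labelled line. These within-line values move with gene structure: genes with a coding share under 0.3 of the transcript had a median log2 occupancy of -0.54 in the knockout-labelled and -0.59 in the OE-labelled line, and genes with a share of at least 0.7 had 0.29 in both. Genes with an upstream frame stood at -0.23 in the knockout-labelled and -0.21 in the OE-labelled line, and those without at 0.11 and 0.10. The part of these features in the low values of AMD1 and OAZ2 was not tested. The efficiency ratio between the lines had a median of -0.000598 for genes with an upstream frame and -0.00739 for those without, and of 0.04 for coding shares under 0.3 and -0.03 for shares of at least 0.7.

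**Figure D5:**
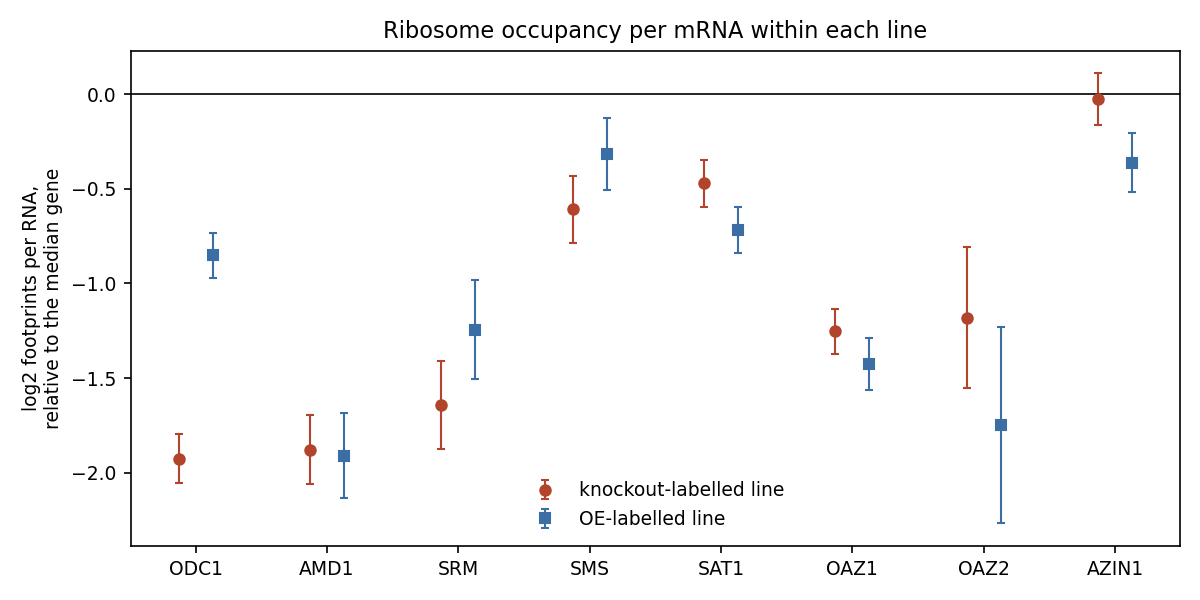
Footprints per RNA count of each gene within 1 line, as a log2 value relative to the median of 7260 genes (the line at 0). Circles are the knockout-labelled line, squares the OE-labelled line, and bars 95% counting intervals; ODC1 stands at -1.93 in the knockout-labelled line and -0.85 in the OE-labelled line, the widest gap among the 8.

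Other genes of polyamine metabolism and transport were mixed. Of 14 listed, 10 were measured in RNA and 8 in footprints. SAT2, a relative of SAT1, was 1.71-fold higher in RNA and 1.56-fold higher in footprints, and SLC3A2, a subunit of amino acid transporters also linked to polyamine export, was 1.55-fold higher in RNA. Those were the 2 of 10 genes at least 1.5-fold higher in RNA, and none was 1.5-fold lower, against 10.5% of all genes in each direction. ATP13A3 and ATP13A2, P-type ATPases that move polyamines out of endosomes and lysosomes, were the 2 of 8 at least 1.5-fold lower in footprints, against 14.0% of all genes, so both counts are near the background. ATP13A3 had 2526 RNA and 162 footprint counts in the knockout-labelled line, against 1618 and 232 in the OE-labelled line, and its efficiency log2 ratio was -0.99 (-1.29 to -0.69). ATP13A2 had an efficiency log2 ratio of -0.60 (-0.98 to -0.23). SMOX, the spermine oxidase gene, had one of 0.61 (0.05 to 1.16), from 85 footprint counts in the knockout-labelled line and 57 in the OE-labelled line. ARG2, which supplies ornithine, stood at -0.32 in RNA and -0.33 in footprints, and NQO1, a quinone reductase reported to shield ornithine decarboxylase from the proteasome, at -0.45 in RNA and -0.48 in footprints. The list's medians were -0.12 in RNA, -0.24 in footprints and -0.08 in efficiency. OAZ3 was not analysed here, and ARG1 had no count in any library.

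Among 11 genes of the methionine cycle and methylthioadenosine salvage, which feed and recycle the aminopropyl donor, 9 were measured. None reached 1.5-fold in RNA, where 10.5% of all genes did in each direction. ADI1 alone was 1.5-fold lower in footprints, against 14.0% of all genes. ADI1, a dioxygenase of the salvage pathway, had 288 RNA and 141 footprint counts in the knockout-labelled line against 179 and 183 in the OE-labelled line, with an efficiency log2 ratio of -0.89 (-1.31 to -0.48). AHCY, the most abundant of them in RNA, which clears S-adenosylhomocysteine, stood at -0.36 in RNA and 0.04 in footprints, with an efficiency log2 ratio of 0.40 (0.29 to 0.51). APIP, a salvage enzyme, likewise had a positive one, 0.39 (0.05 to 0.74). AHCY and APIP were the only measured genes of the list above 0 in efficiency. MAT2A, which makes S-adenosylmethionine, stood at -0.28 in RNA and -0.57 in footprints, with an efficiency log2 ratio of -0.29 (-0.54 to -0.04). MAT2B and ENOPH1 were also lower in efficiency, at -0.45 (-0.76 to -0.14) and -0.30 (-0.59 to -0.01). The list's efficiency median was -0.29, against -0.00480 for all genes.

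Spermidine is also the substrate for hypusine, the modified lysine of the translation factor eIF5A. EIF5A differed little, at 0.10 in RNA and 0.12 in footprints, although its reads may be shared with the near-identical EIF5AL1. DHPS, the enzyme of the first hypusine step, stood at 0.29 in RNA and 0.48 in footprints. DOHH, which completes hypusine, had 186 RNA counts in the knockout-labelled line and 73 in the OE-labelled line, and 77 footprint counts in the knockout-labelled line and 99 in the OE-labelled line. Like ODC1 it was therefore higher in RNA (1.86-fold) and lower in footprints (1.55-fold), with an efficiency log2 ratio of -1.54 (-2.11 to -0.96). The other 4 genes of this list stayed within 1.5-fold in each ratio. DOHH was thus the 1 of 5 past 1.5-fold. Of all genes, 10.5% were 1.5-fold higher in RNA, 14.0% lower in footprints and 12.9% lower in efficiency. With 5 genes this count is not read as a result about the list.

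A further 12 genes known for control by upstream reading frames were listed beside AMD1 and AZIN1, and 11 were measured in efficiency. Of these, 3 were at least 1.5-fold higher in efficiency and none 1.5-fold lower, against 13.4% and 12.9% of all genes, and the median log2 ratio was 0.28. In footprints 3 were at least 1.5-fold higher (ATF4, DDIT3 and PPP1R15A), against 15.0% of all genes, and in RNA 1 (DDIT3), against 10.5%. With 11 or 12 genes these counts are small and are not read as a result about the list. ATF5 lay on the other side, at -0.53 (-0.87 to -0.18) in footprints and -0.36 (-0.90 to 0.18) in efficiency. ATF4, the transcription factor of the amino acid stress response, had an efficiency log2 ratio of 0.84 (0.73 to 0.96). It had 2739 footprint counts in the knockout-labelled library and 1458 in the OE-labelled library. IBTK stood at 0.64 (0.34 to 0.94) and DDIT3 at 0.61 (0.32 to 0.90). PPP1R15A, at 0.53, was 2.07-fold higher in footprints. SLC35A4 stood at 0.46 (0.07 to 0.84) in efficiency. Efficiency intervals crossed 0 for IFRD1 (0.08), EPRS (-0.03), CEBPB (0.09), PPP1R15B (0.12) and MIEF1 (0.28). The AMD1 efficiency value of 0.05 lay below that median and the AZIN1 value of 0.36 above it. PEG10 and RTL1, other genes with programmed frameshifting, had no count in any library.

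ODC1 and SRM are known targets of factors that bind the E box CACGTG together with MAX, so promoter windows of 7 of the 8 genes were searched for it, and windows of both held it. The windows are 300 bases long and reach across an annotated start (RefSeq, GRCh38.p14), and the motif reads the same on both strands. Of 35116 windows of that length, 7.26% held it. The windows of AMD1, OAZ1, OAZ2, SMS and SAT1 held none, as did the window at the upstream start of ODC1, and that of AZIN1 was not searched. The stretches that hold it are shown with the motif in capitals.
SRM, chr1:11060149-11060268, minus strand: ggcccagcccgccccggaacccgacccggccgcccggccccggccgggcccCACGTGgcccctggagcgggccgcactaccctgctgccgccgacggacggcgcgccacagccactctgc
ODC1, chr2:10447963-10448120, minus strand: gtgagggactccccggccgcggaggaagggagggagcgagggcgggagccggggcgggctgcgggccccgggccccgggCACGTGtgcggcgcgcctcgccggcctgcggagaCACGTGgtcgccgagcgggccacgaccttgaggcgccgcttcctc
The ODC1 stretch lies in the first intron of the listed transcript, at a second annotated start, and holds 2 copies. MAX itself had 311 RNA counts in the knockout-labelled line and 176 in the OE-labelled line, a log2 ratio of 0.37 (0.11 to 0.65). MAX footprints numbered 80 in the knockout-labelled line and 99 in the OE-labelled line, a log2 ratio of -0.58 (-1.03 to -0.14). Of its partners, MYCL had an RNA log2 ratio of 0.11 (-0.46 to 0.70) and did not pass the footprint filter. MYCN had 4 RNA counts in the knockout-labelled line and 1 in the OE-labelled line. No other partner of MAX was analysed here. A match to these letters is a description of the sequence only.

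For each member the nearest genes in the plane of both log2 ratios were also listed, among 2906 genes with mean counts of at least 200 in each assay. Nearest to ODC1 were TNRC18 (0.37 in RNA and -0.70 in footprints), PIK3C2A (0.31 and -0.75) and DTD1 (0.31 and -0.66). Nearest to SAT1 was PHB (-0.56 and -0.29) and nearest to AZIN1 was SLC39A1 (-0.16 and 0.19). The likeness rests on 2 ratios from 4 libraries.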

How the data were processed

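Per the labels' protocols, ribosome-protected pieces of 18 to 34 nt and RNA pieces of 18 to 50 nt were made into libraries, with random identifiers of 4 and 5 nt in the linkers and 15 PCR cycles. The authors deposited whole-number counts per gene, each tied to 1 transcript. The submitters' processing notes name cutadapt 1.10, Bowtie 1.1.2, HISAT2 2.1.0 and GRCh38, with no role or order. Sources used here do not say how reads were counted, over which part of the transcript, or whether PCR copies were removed, so intervals may be too narrow. In the labels, the cell line entry of the OE-labelled RNA library is spelled SW840, although its source entry has SW480, which was used.

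TMM factors (edgeR 4.0.16, R 4.3.3) over all 19192 genes scaled the libraries of each assay, and CPM values use the scaled totals. Genes entered with a mean count of at least 50 per assay, and 0.5 was added to each count. Intervals are exact conditional binomial (Clopper-Pearson) at 95% for ratios and Wald for efficiency and occupancy. Without replicates no model or test was fitted. The steps were tested on simulated data. Settings also tried were size factors of DESeq2 1.42.0, upper-quartile factors, totals (all genes, or leaving out mitochondrially encoded ones), other count minimums, 5 added counts and a 3-fold threshold.

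The 8 members and the gene lists were chosen with earlier results of these data known. All members are named. From each list, genes at least 1.5-fold different in any ratio are named, with up to 4 of high RNA count. Some others were named after their values were seen. Positions come from GENCODE release 29. Python 3.11.15 with numpy 2.4.6, scipy 1.17.1 and pandas 2.3.3 did the arithmetic, and matplotlib 3.10.9 drew the plots.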

Additional observations from a re-analysis of the deposited data

How the results depend on the processing

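No paired analysis was possible because each group has 1 library, and leaving out a replicate was not possible for the same reason. The ODC1 ratios kept their direction in each setting: its RNA log2 ratio was 0.47 with total counts, 0.46 without mitochondrially encoded genes in the totals, and 0.64 after subtracting the median of the 40 nearest genes, a setting chosen after seeing the data, which gave -1.27 for efficiency. Under that setting OAZ1 changed sign in footprints (-0.15) and efficiency (-0.04), with neither value past 1.5-fold. No member past 1.5-fold changed sign under any setting. OAZ2, 1.5-fold higher in efficiency, no longer was with DESeq2 size factors, either total-count scaling, 5 added counts or a minimum of 200 (0 members each). With that minimum 0 members were 1.5-fold higher in footprints, and at 3-fold 0 were lower in efficiency. Interval calls changed with total counts for SMS (RNA and footprints), AZIN1 (RNA), SAT1 and OAZ1 (efficiency), and with upper-quartile factors for OAZ1 (RNA), SMS (footprints and efficiency) and SRM (efficiency). Among all genes, the percent at least 1.5-fold different was 13.6 (RNA), 19.1 (footprints) and 13.4 (efficiency) at a minimum of 200, and 32.1 (RNA) and 42.8 (efficiency) with none. The percent at least 2-fold different in RNA, footprints and efficiency was 12.0, 17.8 and 16.7 at a minimum of 10, 3.11, 4.4 and 1.41 at 200, and 20.5, 20.9 and 28.8 with none; at 3-fold it was 1.29, 1.84 and 1.06. OAZ2 had the fewest footprints, with 71 and 35 footprint counts in the knockout-labelled and OE-labelled libraries.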
